A study of Mus musculus with 54 samples.

Results

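Retinal RNA of rd1 mice was compared with that of WT mice at postnatal day 12 (PN12), with 2 arrays per genotype. These 4 arrays were all those labelled with this age among the 54 of a time course, and all 18193 genes with an annotated symbol were described. Both groups were of the C3H strain: the WT mice carried 2 WT alleles of Pde6b and the rd1 mice were homozygous for rd1. The labels name the tissue as neural retina, call the arrays biological replicates and state neither the number of animals per array nor how the WT line was derived, so the p-values measure only a spread between arrays, which may be partly technical. That spread was pooled over replicate arrays of 10 ages and not taken from these 4 alone. The arrays measured biotin-labelled cRNA made from RNA of whole retina, in which fewer cells of a type and less RNA per cell cannot be told apart.

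Pde6b encodes the beta subunit of the rod cyclic GMP phosphodiesterase, the enzyme that lowers cyclic GMP when rods absorb light. Without a working enzyme cyclic GMP accumulates, the cyclic GMP-gated channels of the outer segment stay open, and rods take up calcium and die early in life, whereas cones die later. Around such dying rods, Müller glia and microglia are known to react, and neurons under calcium load or stress are known to switch on immediate early genes, whose transcripts rise without new protein synthesis.

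Values are log2 intensities of the probe set that stood for a gene, and a difference is the mean of the rd1 arrays minus that of the WT arrays, followed by its standard error (SE) as limma estimated it. The deposited values had been summarised by RMA. A gene was called where limma's moderated test gave an adjusted p (Benjamini-Hochberg over all genes) below 0.05. The gene lists used below were chosen with earlier results of these data known. Their counts and medians, also where set beside shares of all genes, therefore describe these data and test nothing. Median intensity lay between 129 and 133 on the 4 arrays. Across genes, which are no independent replicates, Pearson's r of the array pairs lay between 0.995 and 0.998. Log2 differences had an SD of 0.17 between the WT arrays and 0.14 between the rd1 arrays. That SD was also 0.17 between WT replicate 2 and rd1 replicate 2, and 0.22 between WT replicate 1 and rd1 replicate 1. As a check of the tissue, the mean log2 intensity over 18 rod genes was 11.79 to 12.04 on the 4 arrays. Over 13 skeletal muscle genes it was 5.90 to 6.06 and over 14 genes of the retinal pigment epithelium 7.42 to 7.52, and the genotypes overlapped in both. Over 17 lens genes it was 7.22 and 7.42 in WT and 6.85 and 7.01 in rd1. Over 4 red blood cell genes it was 5.87 and 5.81 in WT and 5.70 and 5.64 in rd1. Over 15 vascular genes it was 8.00 and 8.02 in WT and 7.99 and 7.98 in rd1. In the lens, red blood cell and vascular lists both rd1 arrays thus lay below both WT arrays.

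At PN12, 154 of 18193 genes were called (0.846%), of which 112 were higher in rd1 (0.616%) and 42 were lower (0.231%). At an unadjusted p below 0.05 there were 1873 genes (10.3%). At least 2-fold differences were found in 21 of the higher and 3 of the lower genes. The 4 largest rises were of immediate early genes and the fifth of inducible Hsp70. Genes of unrelated function and of Stat3 signalling were also among the large rises, and genes of microglia (up to 0.83) and the integrated stress response (up to 0.62) rose less. The falls were led by Pde6b and included single genes of the rod outer segment. Both rd1 arrays lay on 1 side of both WT arrays for all 154 called genes, as they did for 41.4% of all genes. The median difference over all genes was 0.0031, with -0.059 in the third with the lowest mean intensity and 0.049 in the third with the highest. Of the calls, 72.7% were higher in rd1. That share was 60.5% after quantile normalization and 38.5% when each array was centred on its mean over genes of amacrine and ganglion cells, called centring from here on. Leaving out 1 array left 70 calls without WT replicate 1, 133 without WT replicate 2, 66 without rd1 replicate 1 and 62 without rd1 replicate 2. In all 4 of these fits 41 genes were called, 34 higher and 7 lower.

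**Figure D1:**
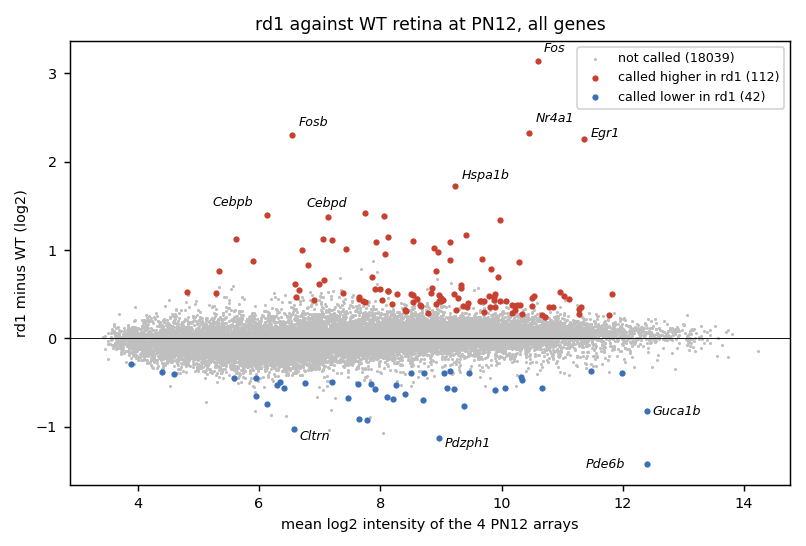
Each point is 1 of 18193 genes, with the mean log2 intensity of the 4 PN12 arrays on the horizontal axis and the log2 difference, rd1 minus WT, on the vertical axis. The 112 genes called higher reach 3.14 (Fos) and the 42 called lower reach -1.42 (Pde6b).

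Pde6b was lower in rd1. Its log2 intensity was 13.06 and 13.15 in the WT arrays and 11.72 and 11.65 in the rd1 arrays, so the genotypes did not overlap. The difference was -1.42 ± 0.21 (adjusted p = 2.10e-05), a 2.68-fold lower level, and it kept its call without each array in turn (-1.47 to -1.38). At PN11 it was -1.44 and at PN13 -1.79. Pde6b lies at chr5:108388373-108431743 (GRCm38.p6), and whether its probe set covers a part of the transcript altered by rd1 is not given in the sources used here.

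The promoter windows of Fos, Nr4a1, Fosb and Junb are printed first, a selection of leading genes that hold a shared short letter pattern. Egr1, whose window is not shown, was not among the called higher genes found to hold the pattern, and it may have lacked a window. Ier2, Klf10 and Cebpd had no window. Each window holds the 250 bases before a RefSeq transcript start (GRCm38.p6), read 5′ to 3′ on the gene's strand. Capitals mark TGACG or its reverse complement CGTCA, the core of the cyclic AMP response element, to which CREB proteins bind. The Fos window is chr12:85473640-85473889 (plus strand), the Nr4a1 window chr15:101266596-101266845 (plus strand), the Fosb window chr7:19310046-19310295 (minus strand) and the Junb window chr8:84978749-84978998 (minus strand).
Fos: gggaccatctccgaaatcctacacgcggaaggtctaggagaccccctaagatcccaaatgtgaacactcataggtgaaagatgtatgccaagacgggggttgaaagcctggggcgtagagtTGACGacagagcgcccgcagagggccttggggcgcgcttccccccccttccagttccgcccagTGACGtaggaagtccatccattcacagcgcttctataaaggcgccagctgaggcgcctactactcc
Nr4a1: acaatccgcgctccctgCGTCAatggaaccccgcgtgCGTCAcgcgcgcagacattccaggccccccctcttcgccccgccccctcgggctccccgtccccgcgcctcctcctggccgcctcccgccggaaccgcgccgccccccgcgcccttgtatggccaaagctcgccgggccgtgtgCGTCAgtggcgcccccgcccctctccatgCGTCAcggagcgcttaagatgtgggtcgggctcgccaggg
Fosb: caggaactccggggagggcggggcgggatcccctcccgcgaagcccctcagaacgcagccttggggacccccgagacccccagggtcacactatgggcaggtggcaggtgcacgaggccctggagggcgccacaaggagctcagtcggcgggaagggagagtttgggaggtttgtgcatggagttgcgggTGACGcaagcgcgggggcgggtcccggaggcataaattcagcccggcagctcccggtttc
Junb: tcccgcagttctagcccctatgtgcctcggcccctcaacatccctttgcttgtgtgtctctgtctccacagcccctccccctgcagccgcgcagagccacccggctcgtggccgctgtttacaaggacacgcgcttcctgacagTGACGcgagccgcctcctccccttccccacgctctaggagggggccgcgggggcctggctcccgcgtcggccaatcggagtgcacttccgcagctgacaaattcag

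Nr4a1 holds 4 such cores, Fos 2, and Fosb and Junb 1 each. At least 1 was found in 25.9% of the 14452 genes with a window, at least 2 in 6.39%, at least 3 in 1.19% and at least 4 in 0.263%. Among the called genes with a window, 37 of 92 higher genes (40.2%) and 5 of 34 lower genes (14.7%) held at least 1. Dusp1 and Cebpb, which also rose, held 3 each, and Nab2, a further riser, held none. The AP-1 motif TGANTCA, to which Fos and Jun proteins bind, was found in 5.43% of the higher genes, 5.88% of the lower genes and 6.7% of all. The EGR motif GCGNGGGCG was found in 14.1%, 5.88% and 8.59%, and the CArG box, the serum response factor motif, in 4.35%, 0% and 1.43%. All were searched on both strands, and a match describes letters, not a bound site.

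Fos, the founding member of the AP-1 transcription factors, rose more than any other of the 18193 genes. Its log2 intensity was 8.93 and 9.12 in WT and 12.14 and 12.19 in rd1. The gap between the genotypes was 3.01, far wider than that within either genotype, and the difference was 3.14 ± 0.19 (8.81-fold, adjusted p = 4.72e-15). Fosb, its close relative, measured 5.52 and 5.28 in WT and 7.65 and 7.76 in rd1, a difference of 2.30 ± 0.15 (adjusted p = 1.32e-14). Junb, their dimer partner, measured 6.33 and 6.65 in WT and 7.64 and 7.61 in rd1, a difference of 1.13 ± 0.12 (adjusted p = 1.65e-08). Atf3, a stress-induced member, rose by 0.55 ± 0.13 (adjusted p = 0.0150), and its call ended without any 1 of the 4 arrays (adjusted p = 0.0905 to 0.176) and after centring (0.156). Those were the 4 called of 12 AP-1 genes, and the median over the 12 was 0.12. Jun did not pass (0.22, adjusted p = 0.793), with WT arrays at 9.30 and 9.03 and rd1 arrays at 9.58 and 9.19 that overlapped. Fosl1 and Fosl2 had differences of -0.17 and -0.20, and neither was called.

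Nr4a1, an orphan nuclear receptor of the immediate early class, had the smallest adjusted p of all genes. Its values were 9.25 and 9.34 in WT and 11.57 and 11.68 in rd1, a difference of 2.33 ± 0.13 (adjusted p = 1.74e-16). Egr1, a zinc finger factor induced by neuronal activity and growth factors, measured 10.44 and 10.04 in WT and 12.50 and 12.48 in rd1, a difference of 2.25 ± 0.23 (adjusted p = 1.21e-08). Here the WT arrays stood 0.40 apart and the rd1 arrays 0.02. Klf10, a factor induced by transforming growth factor beta, rose by 1.11 ± 0.20 (adjusted p = 5.97e-04). These were the 3 called of 13 Egr, Nr4a and Klf factors (median 0.10, and 0.0022 after centring). The relatives Nr4a2 (0.21), Nr4a3 (-0.12), Egr2 (0.12) and Egr4 (-0.11) were not called.

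Ier2 was the 1 called gene among 19 other immediate early genes, at 8.42 and 8.50 in WT and 9.56 and 9.32 in rd1 (0.97 ± 0.10, adjusted p = 2.26e-08). In that list 13 of the 19 had both rd1 arrays above both WT arrays, against 20.4% of all genes, and the median was 0.18. Feedback regulators of these pathways were also among the rises. Dusp1, a phosphatase that switches off MAP kinases, measured 8.48 and 8.75 in WT and 9.90 and 9.50 in rd1 (1.09 ± 0.12, adjusted p = 1.39e-07). Dusp5, which acts on ERK in the nucleus, rose by 0.50 ± 0.07 (adjusted p = 2.99e-05). They were the 2 called of 14 MAP kinase feedback genes, whose median was 0.08 and turned to -0.02 after centring. Nab2, a corepressor of Egr proteins, measured 7.30 and 7.46 in WT and 8.46 and 8.49 in rd1 (1.09 ± 0.12, adjusted p = 3.99e-08). Nab1, its paralog, rose by 0.40 and was chosen after its value was seen. Sik2, a kinase that restrains CREB coactivators and was likewise chosen after its value was seen, rose by 0.86 ± 0.08 (adjusted p = 5.42e-10).

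**Figure D2:**
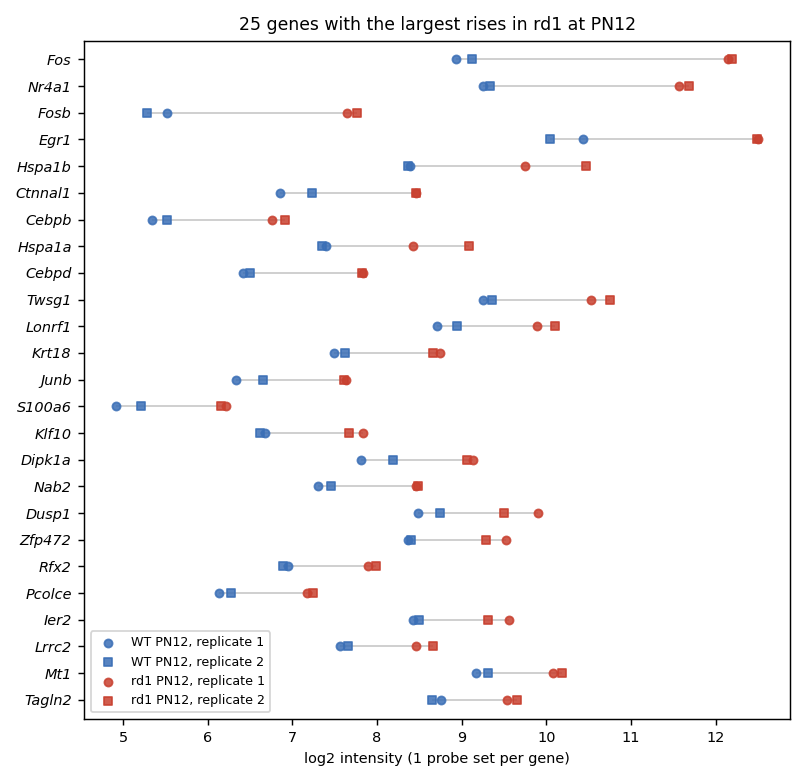
Log2 intensity (horizontal axis) of the 25 genes with the largest rises, with blue points for the 2 WT arrays and red points for the 2 rd1 arrays at PN12, circles for replicate 1 and squares for replicate 2. Blue and red do not overlap in any of the 25 genes, and Hspa1b and Hspa1a show the rd1 arrays 0.72 and 0.66 apart.

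Of the other large rises, most genes are not transcription factors. Ctnnal1, which encodes alpha-catulin, measured 6.85 and 7.23 in WT and 8.46 and 8.46 in rd1 (1.42 ± 0.14, adjusted p = 6.73e-09). Twsg1, a secreted modulator of bone morphogenetic proteins, measured 9.26 and 9.35 in WT and 10.52 and 10.75 in rd1 (1.33 ± 0.10, adjusted p = 4.72e-12). Its other probe sets differed by 0.19 to 1.63. Lonrf1 (1.17), Krt18, a keratin of simple epithelia (1.15), Zfp472 (1.02), Rfx2, a factor of ciliated cells (1.02), Pcolce, an enhancer of procollagen processing (1.01), Lrrc2 (0.96) and Tagln2, an actin-binding protein (0.89), completed the group of large rises with unrelated functions, together with Dipk1a, which is given with the neighbours of Pde6b. For Rfx2 the other 3 probe sets differed by -0.15 to 0.18, and the mean of its probe sets was not called (0.25, adjusted p = 0.197).

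Hspa1b and Hspa1a encode the stress-inducible Hsp70 chaperones, which bind unfolded proteins, and are adjacent, near-identical genes. Their probe sets may each read both transcripts, so the values cannot be assigned to either gene with certainty. The windows before their starts differ in 3 of 250 bases, and the Hspa1b window, chr17:34959239-34959488 (minus strand), is shown with the heat shock element in capitals.
Hspa1b: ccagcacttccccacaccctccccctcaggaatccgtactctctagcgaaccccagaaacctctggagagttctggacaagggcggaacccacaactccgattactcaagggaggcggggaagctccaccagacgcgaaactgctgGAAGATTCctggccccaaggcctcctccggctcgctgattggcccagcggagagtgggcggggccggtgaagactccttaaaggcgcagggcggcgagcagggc

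That motif, searched as GAANNTTC or TTCNNGAA (each its own reverse complement), was found in 17.4% of the called higher genes with a window, 11.8% of the lower and 13% of all. Hspa1b measured 8.38 and 8.36 in WT and 9.74 and 10.46 in rd1, a difference of 1.73 ± 0.18 (adjusted p = 1.21e-08). Hspa1a measured 7.39 and 7.35 in WT and 8.43 and 9.09 in rd1, a difference of 1.39 ± 0.24 (adjusted p = 4.57e-04). In both, rd1 replicate 2 stood above rd1 replicate 1 and both stood above WT. Without rd1 replicate 2 the Hspa1a difference was 1.06 and not called (adjusted p = 0.119). They were the 2 called of 17 heat shock genes, whose median was 0.07 and turned to -0.02 after centring. Cytosolic partners showed small values that were not called, with 0.20 for Hsph1, 0.18 for Dnaja1, 0.16 for Hsp90aa1 and 0.11 for Dnajb1.

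Genes of the integrated stress response, by which phosphorylation of the initiation factor eIF2 slows translation and lets Atf4 induce amino acid and stress genes, rose in part. Eif2ak3, the kinase PERK that senses unfolded protein in the endoplasmic reticulum, measured 8.92 and 9.13 in WT and 9.68 and 9.58 in rd1 (0.60 ± 0.08, adjusted p = 6.88e-06). Trib3, a pseudokinase target of Atf4, measured 6.61 and 6.74 in WT and 7.28 and 7.31 in rd1 (0.62 ± 0.10, adjusted p = 2.65e-04). Asns, asparagine synthetase, measured 8.99 and 9.11 in WT and 9.66 and 9.59 in rd1 (0.57 ± 0.08, adjusted p = 2.41e-05). In each of these genes the rd1 arrays stood above the WT arrays by more than the spread within a genotype. Chac1, a glutathione-degrading enzyme, rose by 0.56 ± 0.11 (adjusted p = 0.0029). Its call ended without WT replicate 1 (0.54, adjusted p = 0.0763), without rd1 replicate 2 (0.46, adjusted p = 0.163) and after centring (0.47, adjusted p = 0.0600). With Atf3, given above, 5 of 25 genes of this list were called. Both rd1 arrays stood above both WT arrays in 16 of 25, against 20.4% of all genes, and the median was 0.18, or 0.08 after centring. Ddit3 (0.35, adjusted p = 0.183) and Atf5 (0.38, adjusted p = 0.0612) were not called. Neither was Atf4 itself, which is induced mainly through translation (0.16).

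The Asns window, chr6:7693210-7693459 (minus strand), is shown because it holds TGATGNAA, the pattern bound by Atf4 with C/EBP partners, within 23 bases of the start (capitals).
Asns: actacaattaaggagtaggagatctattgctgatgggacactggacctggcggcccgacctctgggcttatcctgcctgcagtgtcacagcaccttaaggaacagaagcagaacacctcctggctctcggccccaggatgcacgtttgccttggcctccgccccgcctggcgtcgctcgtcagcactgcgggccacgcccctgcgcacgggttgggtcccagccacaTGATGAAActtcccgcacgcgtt

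That pattern, searched on both strands, was found in 3 of 92 called higher genes with a window (3.26%), which were Asns, Atf3 and Chac1, in 2 of 34 lower genes (5.88%) and in 2.84% of all. Further called genes of amino acid supply, chosen after their values were seen, were Psat1 of serine synthesis (0.49), Aldh18a1 of proline synthesis (0.50), Slc3a2 and Slc7a5, the chains of a large neutral amino acid transporter (0.44 and 0.38), and Mars1, methionyl-tRNA synthetase (0.35).

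Stat3, the transcription factor activated through the gp130 receptor by cytokines such as Lif, measured 9.40 and 9.46 in WT and 10.18 and 10.25 in rd1 (0.79 ± 0.10, adjusted p = 5.74e-07). Of its other 3 probe sets, 2 differed by 0.76 and 0.64 and 1 by -0.15. Cebpd, a target of Stat3, measured 6.41 and 6.50 in WT and 7.84 and 7.82 in rd1 (1.37 ± 0.15, adjusted p = 2.82e-08), while its second, dimmer probe set was flat (-0.04). Cebpb, its relative, measured 5.34 and 5.52 in WT and 6.75 and 6.91 in rd1 (1.40 ± 0.20, adjusted p = 1.36e-05), with 0.49 at a second probe set. All rd1 arrays stood above all WT arrays at the probe sets used. Edn2, endothelin 2, which stressed photoreceptors release, rose by 0.87 ± 0.17 (adjusted p = 0.0039). Its call ended without WT replicate 2 (0.84, adjusted p = 0.0522) and without rd1 replicate 2 (0.69, adjusted p = 0.207). With Junb, these were the 5 called of 23 genes of gp130 and Stat3 signalling, whose median was 0.06 and turned to -0.04 after centring. Socs3, the feedback inhibitor of the pathway, was not called (0.10), and neither were the receptor genes Il6st (0.23) and Osmr (0.25).

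Reactive glia genes, which mark stressed Müller cells and astrocytes, had 5 called of 20 (median 0.14, or 0.05 after centring): Cebpd, Edn2 and Stat3 as above, S100a6, a calcium-binding protein, and Cp, ceruloplasmin. S100a6 measured 4.92 and 5.21 in WT and 6.21 and 6.16 in rd1 (1.12 ± 0.27, adjusted p = 0.0268), and Cp rose by 0.32 ± 0.08 (adjusted p = 0.0434). Both calls ended without any 1 of the 4 arrays (adjusted p = 0.0596 to 0.378 for S100a6 and 0.112 to 0.378 for Cp). Centring also ended them (1.03, adjusted p = 0.0740, and 0.23, adjusted p = 0.268), and 3 further alternatives besides those with a replicate block ended that of Cp (adjusted p = 0.0657 to 0.129). Gfap, the filament protein most used as a mark of gliosis, measured 7.31 and 7.28 in WT and 7.84 and 8.32 in rd1. Its difference of 0.79 was not called (adjusted p = 0.101), and rd1 replicate 2 stood 0.48 above rd1 replicate 1. Vim, a second filament gene, was also not called (0.29, adjusted p = 0.0573), but was when the dimmest 30% of genes were left out (adjusted p = 0.0464). Among 19 Müller glia genes only Crym was called, at 10.75 and 10.84 in WT and 11.22 and 11.32 in rd1 (0.48 ± 0.08, adjusted p = 6.67e-04), and without rd1 replicate 2 its adjusted p was 0.0573. The median of the Müller list was 0.12, and 0.02 after centring.

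Microglia and macrophage genes had the highest median of all 36 gene lists, at 0.31 over 23 genes. Both rd1 arrays stood above both WT arrays in 17 of the 23, against 20.4% of all genes, a description since the lists were chosen with earlier results known. Cd68, a lysosomal protein of phagocytes, measured 6.27 and 6.52 in WT and 7.16 and 7.29 in rd1 (0.83 ± 0.13, adjusted p = 1.32e-04). C1qa and C1qc, chains of the first complement component, measured 8.53 and 8.54 against 9.32 and 9.27 (0.76 ± 0.13, adjusted p = 2.14e-04) and 7.50 and 7.54 against 8.22 and 8.22 (0.70 ± 0.11, adjusted p = 7.08e-05). The replicates of each genotype lay within 0.1 of each other for both C1qa and C1qc. Tyrobp, the signalling adaptor of Trem2, rose by 0.52 ± 0.12 (adjusted p = 0.0220), a call that ended without any 1 array (adjusted p = 0.125 to 0.292) and after centring (0.42, adjusted p = 0.160). These were the 4 called. C1qb, a further chain of the same component, measured 8.23 and 8.54 in WT and 8.53 and 8.96 in rd1. Its genotypes overlapped, and it was not called (0.36, adjusted p = 0.566). The receptor Csf1r (0.33, adjusted p = 0.0879), P2ry12 (0.44) and Cx3cr1 (0.22) of resting microglia, and Aif1 (0.26) were not called, and Tmem119 (-0.30) and Cd14 (-0.27) had rd1 arrays below WT. No gene was called among 21 complement factors, chemokines and cytokines (median -0.04).

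Lysosomal cathepsins Ctsz and Ctsd were the 2 called of 18 lysosome and autophagy genes (median 0.15). Ctsz rose by 0.50 (adjusted p = 0.0447) and Ctsd by 0.33 (adjusted p = 0.0150). The Ctsz call ended without WT replicate 1 (0.36, adjusted p = 0.649), rd1 replicate 1 (0.57, adjusted p = 0.139) or rd1 replicate 2 (0.43, adjusted p = 0.345), and that of Ctsd without any 1 array (adjusted p = 0.0769 to 0.216). Centring ended both (adjusted p = 0.126 and 0.145), the mean of all probe sets that of Ctsz (0.117), moderation without a trend that of Ctsz (0.0588), and the fit of the compared arrays alone that of Ctsd (0.0627). Further called genes that phagocytes express, chosen after their values were seen, were Ctsc, a cathepsin (0.42), Mfge8, a bridge between phagocytes and dying cells (0.50), and Fcrls (0.43). The microglia list mean was 7.05 on both WT arrays and 7.32 and 7.38 on the rd1 arrays, and its part in these rises was not tested.

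**Figure D3:**
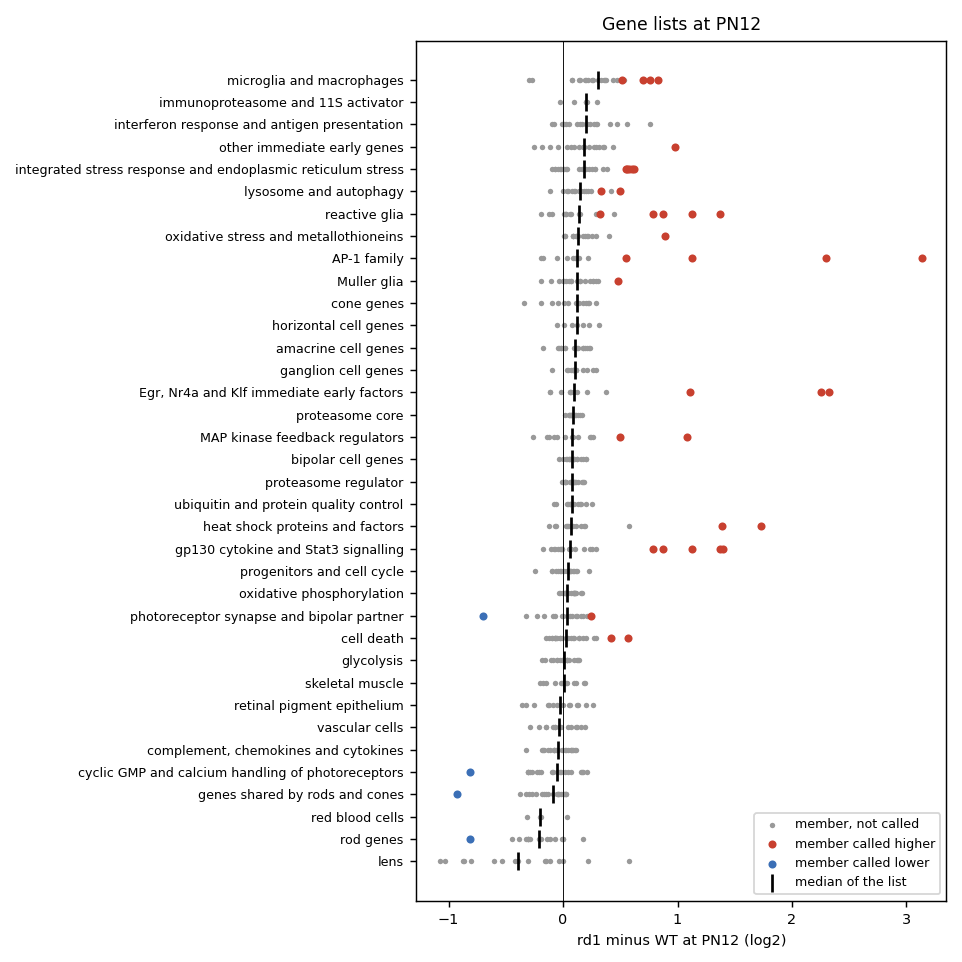
Each row is 1 of 36 gene lists, ordered by median, with a point for each member's log2 difference at PN12 (rd1 minus WT, horizontal axis) and a black bar for the median. Red and blue points are called higher and lower. The microglia list has the highest median (0.31) and the lens list the lowest (-0.40).

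Rod genes stood slightly lower in rd1, with 14 of 18 having both rd1 arrays below both WT arrays, against 21.0% of all genes. The median was -0.21, and the list mean was 12.01 and 12.04 in WT and 11.82 and 11.79 in rd1. Only Guca1b, a guanylate cyclase activating protein that restores cyclic GMP when calcium falls, was called in this list. It measured 12.82 and 12.78 in WT and 12.00 and 11.97 in rd1 (-0.82 ± 0.20, adjusted p = 0.0298), and a second probe set differed by -1.01. The arrays of each genotype lay 0.03 and 0.04 apart, and the call ended without any 1 of them (adjusted p = 0.119 to 0.258). Outer segment and transduction genes that were not called included Prph2, a disc rim protein (-0.38, with an adjusted p of 0.0435 in the fit of the compared arrays alone), the channel subunits Cnga1 (-0.31) and Cngb1 (-0.29), Pde6a, the partner subunit of Pde6b (-0.31), Gnat1, rod transducin (-0.21), and Pde6g, the inhibitory subunit (-0.20). Nrl, the factor that specifies rods (-0.11), Sag, arrestin (-0.14), and Rom1 (-0.00041) differed less, and none was called.

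Genes shared by rods and cones had 1 called of 21, Fscn2, a photoreceptor actin-bundling protein. It measured 8.06 and 8.41 in WT and 7.42 and 7.20 in rd1 (-0.93 ± 0.16, adjusted p = 4.57e-04). Without WT replicate 2 the difference was -0.75 (adjusted p = 0.0506) and without rd1 replicate 2 it was -0.82 (adjusted p = 0.0525). The median of the shared list was -0.08, or -0.18 after centring. Both rd1 arrays lay below both WT arrays in 11 of the 21, against 21.0% of all genes. Crx (-0.02) and Otx2 (0.02), the factors that drive photoreceptor genes, and Rcvrn, recoverin (-0.05), were close to 0. Over 14 cone genes the median was 0.12, or 0.02 after centring, and without centring none was called. Of their differences 10 were positive and 4 negative, with 0.22 for the short-wave opsin Opn1sw, -0.20 for Opn1mw and 0.14 for Arr3, cone arrestin. Gulo had the largest of the list (-0.34) and was called lower after centring (-0.43, adjusted p = 0.0199).

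The other falls included genes of varied function. Pdzph1 fell by 1.13 on the log2 scale (adjusted p = 0.0044), but its call ended without WT replicate 1 (adjusted p = 0.0632) or rd1 replicate 2 (adjusted p = 0.119). Cltrn, collectrin, fell by 1.03 (adjusted p = 0.0012, and 0.0581 without rd1 replicate 2). Gpsm2, a regulator of G proteins and spindle orientation, measured 9.69 and 9.82 in WT and 8.95 and 9.04 in rd1 (-0.76 ± 0.12, adjusted p = 1.08e-04). Lrp4, a receptor of neuromuscular and other synapses, measured 9.18 and 8.93 in WT and 8.40 and 8.32 in rd1 (-0.70 ± 0.11, adjusted p = 4.64e-05). Rabgef1, an exchange factor for the endosomal Rab5, fell by 0.58 (adjusted p = 2.88e-04), and its 3 probe sets lay between -0.59 and -0.55. Abca13, a lipid transporter, fell by 0.65 (adjusted p = 7.64e-04). Pde6b, Gpsm2, Lrp4, Rabgef1, Abca13 and Zfp33b were the 6 of the 20 largest falls that kept their call without each array in turn.

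**Figure D4:**
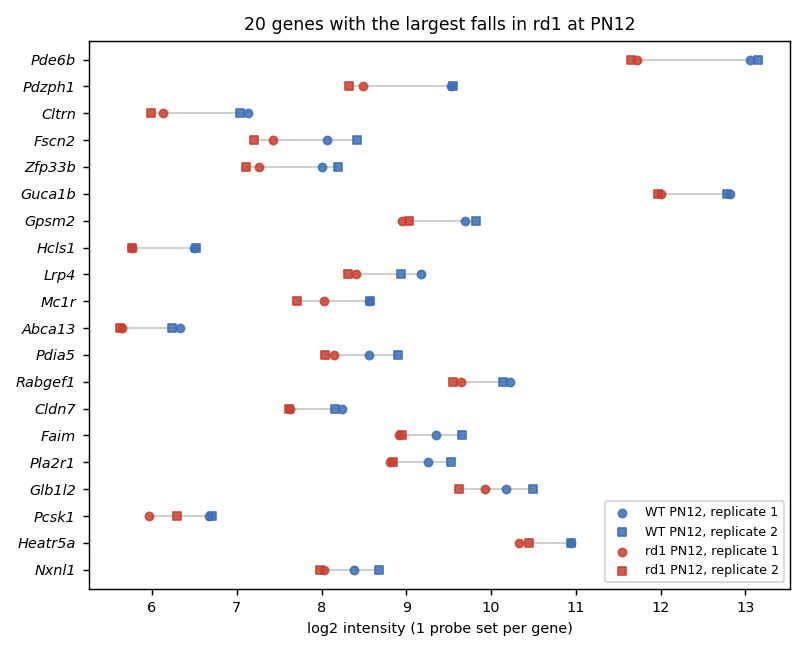
Log2 intensity (horizontal axis) of the 20 genes with the largest falls, drawn as for the rises. The rd1 points of Pde6b lie at 11.72 and 11.65, left of its WT points at 13.06 and 13.15, and no gene of the 20 shows overlap.

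Nxnl1, which encodes rod-derived cone viability factor, fell by 0.53 (adjusted p = 0.0310), and its call ended without WT replicate 2 (-0.39, adjusted p = 0.305), rd1 replicate 1 (-0.55, adjusted p = 0.203) or rd1 replicate 2 (-0.51, adjusted p = 0.232). Hcls1 (-0.75), Mc1r (-0.69), Pdia5 (-0.63), Cldn7 (-0.57), Faim (-0.57), Pla2r1 (-0.56), Glb1l2 (-0.56), Pcsk1 (-0.56) and Heatr5a (-0.56) were the other falls whose calls ended without at least 1 array. Without rd1 replicate 2 the adjusted p of Mc1r was 0.107 (-0.53). Without rd1 replicate 1 that of Heatr5a was 0.111 (-0.50) and that of Pcsk1 0.749 (-0.39). Without WT replicate 2 it was 0.161 for Faim (-0.42), 0.239 for Pdia5 (-0.46), 0.214 for Pla2r1 (-0.43) and 0.321 for Glb1l2 (-0.41), and without WT replicate 1 it was 0.150 for Cldn7 (-0.53) and 0.0585 for Hcls1 (-0.76). Further arrays ended these calls, at adjusted p of 0.0691 and 0.0723 for Hcls1, 0.0858 and 0.107 for Cldn7, 0.0782 for Faim, 0.423 for Glb1l2, 0.0769 and 0.194 for Pdia5, 0.158 and 0.0975 for Pla2r1, and 0.237 and 0.169 for Pcsk1. Quantile normalization also ended the call of Pcsk1 (adjusted p = 0.0654). Myo7a, a myosin of photoreceptors and the pigment epithelium (-0.52), and Ppargc1b, a coactivator of mitochondrial genes (-0.37), were called lower, a pair picked once the values were known.

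Lens transcripts stood lower in rd1 in most of their list. Of 17 lens genes, 11 had both rd1 arrays below both WT arrays, against 21.0% of all genes. The median was -0.40, and the list mean was 7.22 and 7.42 in WT and 6.85 and 7.01 in rd1. None was called: Cryaa, alpha A crystallin, measured 8.46 and 8.72 in WT and 7.30 and 7.73 in rd1 (-1.07 ± 1.29, adjusted p = 0.831). Of the crystallins named by the rule, Cryaa (adjusted p = 4.19e-06), Cryba1, Cryga, Crygb and Crygd were called lower in the fit of the compared arrays alone. The crystallin Cryab, which glia and neurons also express, stood higher in rd1 (0.57, adjusted p = 0.825, and 5.70e-04 in the fit of the compared arrays alone). The part of lens tissue in the falls was not tested. Red blood cell genes (4 measured, median -0.20) had both rd1 arrays below both WT arrays in 3 of 4, against 21.0% of all genes. Their median was -0.02 in the mean of all probe sets. Vascular (-0.04) and pigment epithelium (-0.03) medians were near 0, and no gene was called in any of the 3 lists.

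No gene was called in the lists of inner retinal neurons. The median was 0.11 for 16 amacrine, 0.10 for 14 ganglion, 0.12 for 7 horizontal and 0.08 for 18 bipolar cell genes. After centring these medians were 0.01, 0.0068, 0.02 and -0.02. Since the centring uses the amacrine and ganglion cell genes themselves, their medians are held near 0 by construction. In the list of the photoreceptor synapse and its bipolar partner, with a median of 0.03 that turned to -0.06 on centring and -0.03 after quantile normalization, Lrp4 was lower and Dag1, dystroglycan, was higher. Dag1 rose by 0.25 (adjusted p = 0.0370), the smallest of all called rises, and its call ended without any 1 array (adjusted p = 0.0562 to 0.577) and under 5 other alternatives besides the replicate block (adjusted p = 0.0657 to 0.656). Its ligand Egflam, pikachurin, was not called (-0.33), but was after quantile normalization (-0.38, adjusted p = 0.0202) and centring (-0.42, adjusted p = 0.0216).

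Proteasome genes, which the series title concerns, were not called at PN12. The 14 core genes differed by 0.01 to 0.17 (median 0.09), and 4 had both rd1 arrays above both WT arrays, against 20.4% of all genes. The core list mean was 10.71 and 10.84 in WT and 10.93 and 10.79 in rd1, so the genotypes overlapped, and the median turned to -0.0099 after centring. The 20 regulator genes had a median of 0.07 (-0.02 after centring), 13 ubiquitin and quality control genes 0.07 (-0.02 after centring), and 6 immunoproteasome genes 0.20, with Psmb10 at 0.30 (adjusted p = 0.416). Only transcripts were measured.

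Interferon and antigen presentation genes had 14 of 21 members with both rd1 arrays above both WT arrays, against 20.4% of all genes, and none called. Their median was 0.20, or 0.11 after centring. Ifitm3, a restriction factor, measured 7.52 and 7.61 in WT and 8.64 and 8.00 in rd1 (0.76 ± 0.49, adjusted p = 0.634). B2m, the light chain of class I molecules, measured 8.58 and 8.41 in WT and 9.10 and 8.99 in rd1 (0.55, adjusted p = 0.410). In the fit of the compared arrays alone both were called (adjusted p = 0.0029 and 0.0025). Both were highest in rd1 replicate 1, and the list mean was 6.99 and 7.04 in WT and 7.27 and 7.18 in rd1. At PN11 and PN13 the median of the same list was -0.02 and -0.05.

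Among 25 cell death genes, 2 were called. Tnfrsf12a, the receptor Fn14, rose by 0.56 (adjusted p = 0.0069) and Cdkn1a, the cell cycle inhibitor p21, by 0.42 (adjusted p = 0.0275). The Tnfrsf12a call ended without any 1 array (adjusted p = 0.0503 to 0.159) and after centring (adjusted p = 0.103). That of Cdkn1a ended without WT replicate 1 (0.32, adjusted p = 0.526), rd1 replicate 1 (0.43, adjusted p = 0.198) or rd1 replicate 2 (0.40, adjusted p = 0.216), and under 3 other alternatives (adjusted p = 0.0562 to 0.188). The list median was 0.02 and turned to -0.07 after centring. Mt1, a metallothionein that binds zinc and copper, measured 9.17 and 9.31 in WT and 10.08 and 10.19 in rd1 (0.89 ± 0.19, adjusted p = 0.0060). Without WT replicate 1 the Mt1 difference was 0.82 (adjusted p = 0.154), without rd1 replicate 1 0.95 (0.0548) and without rd1 replicate 2 0.84 (0.127). The 17 oxidative stress genes had a median of 0.13, or 0.03 after centring, with Mt1 the only call.

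Medians lay near 0 for glycolysis (19 genes, 0.01), oxidative phosphorylation (22 genes, 0.04), skeletal muscle (13 genes, 0.0068) and progenitors and the cell cycle (20 genes, 0.04). After centring each of these 4 medians was negative (-0.09, -0.06, -0.09 and -0.05), and no member was called. The 23 genes of cyclic GMP and calcium handling had a median of -0.05, with Guca1b the only call.

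Genes near Pde6b on chromosome 5 differed in both directions. Of 400 tested genes within 20 Mb, 6 were called (1.5%), against 146 of 17745 genes with a position elsewhere (0.823%). Dipk1a, a transmembrane protein at chr5:107908042-107987077 (GRCm38.p6), measured 7.81 and 8.19 in WT and 9.13 and 9.06 in rd1 (1.10 ± 0.13, adjusted p = 1.79e-07). Zfp33b, a zinc finger gene at chr5:104570575-104584620, measured 8.01 and 8.20 in WT and 7.27 and 7.11 in rd1 (-0.91 ± 0.14, adjusted p = 9.08e-05). Both kept their call without each array in turn. Alkbh2, a DNA repair enzyme (0.62), Mtf2 of the Polycomb machinery (0.35) and Jchain, the joining chain of antibodies (0.44), were the others besides Pde6b. The Alkbh2 call ended without WT replicate 1 (adjusted p = 0.0632) or rd1 replicate 1 (0.292). That of Mtf2 ended without WT replicate 1 (0.378), rd1 replicate 1 (0.0559) or rd1 replicate 2 (0.197), and that of Jchain without WT replicate 1 (0.639), rd1 replicate 1 (0.244) or rd1 replicate 2 (0.292). For Mtf2 the mean of its probe sets was 0.08 (adjusted p = 0.613), and centring (0.196) and the fit of the compared arrays alone (0.0734) also ended its call. Quantile normalization (0.0740) and centring (0.194) ended that of Jchain. Whether variants linked to rd1 differ between the lines was not tested.

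PN12 was set beside the ages before and after, with 3 arrays per genotype each and no array shared. At PN11, 107 genes were called (0.588%), 79 higher (0.434%) and 28 lower (0.154%). At PN13, 1364 were called (7.50%), 744 higher (4.09%) and 620 lower (3.41%). Of the 112 genes higher at PN12, 111 had the same sign at PN11, where 60 were called (53.6%, and 75.9% of the higher calls at PN11). At PN13 all 112 had the same sign and 100 were called (89.3%, and 13.4% of the higher calls at PN13). Of the 42 lower genes, 39 had the same sign at PN11 with 17 called (40.5%), and 36 had it at PN13 with 33 called (78.6%). Over the 3 ages in turn, the higher genes had medians of 0.32, 0.49 and 0.58 and the lower genes -0.31, -0.54 and -0.65. Since the genes were chosen at PN12, those medians are a description. The counts of calls rest on different numbers of arrays.

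No gene's difference changed from PN11 to PN12 by limma's test (0 of 18193 called, 0.00%, with 630 at an unadjusted p below 0.05, 3.46%). From PN12 to PN13, 14 genes changed (0.0770%), with 1659 at an unadjusted p below 0.05 (9.12%). Each of the 3 lists of immediate early genes had called members at all 3 ages, though most members were not called. Among the 19 other immediate early genes, 1 was called higher and 1 lower at PN11, and 5 higher and 3 lower at PN13. Nr4a1 differed by 2.09 at PN11 and 1.78 at PN13, Fosb by 2.15 and 2.33, and Egr1 by 2.71 and 2.20. Fos differed by 3.38 at PN11 and 2.66 at PN13, with rd1 arrays at 11.90 to 12.18 and 11.89 to 12.09 and WT arrays at 8.18 to 9.07 and 9.26 to 9.36. The change from PN12 to PN13 was -0.47 (adjusted p = 0.579). Hspa1b differed by 2.00 at PN11 and 1.85 at PN13, and Twsg1 by 1.30 and 1.43. Cebpd differed by 0.68 at PN11 and 2.24 at PN13, where its rd1 arrays lay between 8.79 and 9.06, and its change from PN12 missed the threshold (0.87, adjusted p = 0.0561). Stat3 differed by 0.48 at PN11 and 0.95 at PN13.

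**Figure D5:**
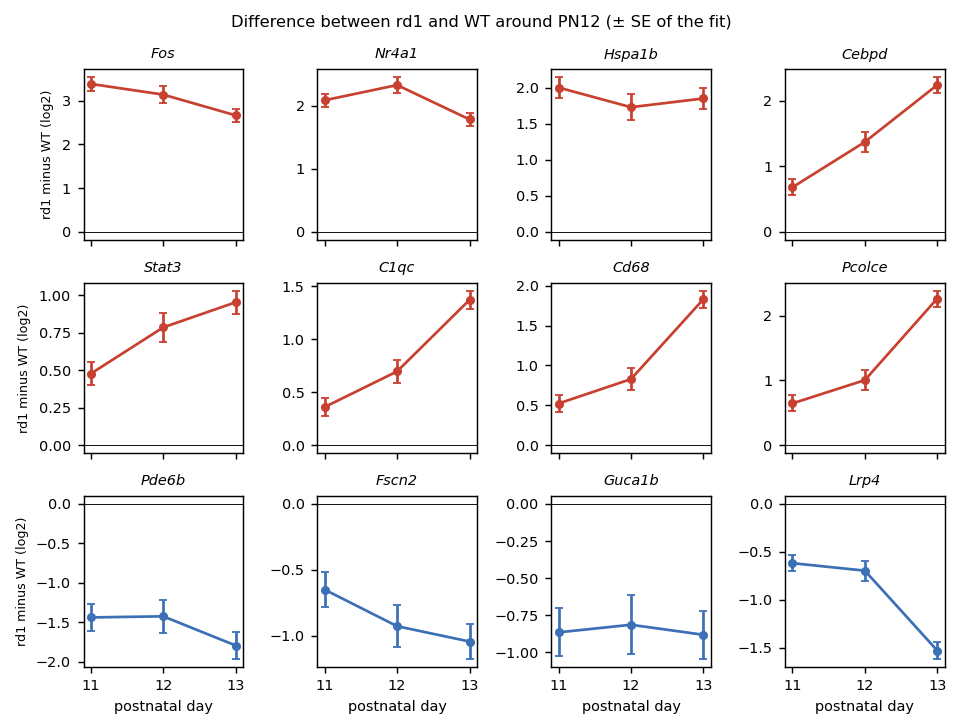
The log2 difference, rd1 minus WT, of 12 genes at PN11, PN12 and PN13 (horizontal axis, postnatal day), with the SE of the fit as bars. Fos stays near 3 while Cd68 and Pcolce stand higher and Lrp4 lower at PN13 than at PN12, 3 of the 14 genes whose difference changed.

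Of the 14, 5 belong to the microglia list, and 4 of these are given here. Cd68 went from 0.83 at PN12 to 1.83 at PN13 (adjusted p of the change = 0.0025), Tyrobp from 0.52 to 1.45 (0.0019), and C1qc from 0.70 to 1.37 (0.0298). Lyz2, a lysozyme of phagocytes, went from 0.36 to 1.13 (0.0023). The microglia list had medians of 0.16 and 0.31 at PN11 and PN12 and reached 0.70 at PN13. There 20 of its 23 genes were called higher, against 4.09% of all genes. The change of Cd68 missed the threshold without WT PN12 replicate 2 (0.0686) or rd1 PN12 replicate 1 (0.0778), and that of Lyz2 without WT PN12 replicate 1 (0.0574). That of C1qc missed it without any 1 of the 4 PN12 arrays (0.0851 to 0.232) or of 3 PN13 arrays (0.0655 to 0.104).

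Rod genes had medians of -0.14, -0.21 and -0.51 at PN11, PN12 and PN13. At PN13, with 3 arrays per genotype, 15 of the 18 were called lower, against 3.41% of all genes. None of the 18 was among the 14 genes whose difference changed from PN12. The rod list mean of the WT arrays was 11.84 to 12.07 at PN11 and 12.15 to 12.25 at PN13, and that of the rd1 arrays was 11.65 to 11.68 at PN13. The reactive glia median was 0.07, 0.14 and 0.45 at the 3 ages.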

How the data were processed

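Messenger RNA was measured in 54 arrays, of which the 4 at PN12 are compared here. The deposited values are linear intensities per probe set, summarised by RMA per the submitters' processing notes, where neither a version nor joint normalization of the arrays is stated. The array platform's annotation gave 1 symbol to 34945 of 45037 probe sets, several to 932 and none to 9160; only the first kind was used. Where a gene had several probe sets (9010 genes), the brightest on average over all arrays stood for it.

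Because the deposited values were linear, log2 was taken, as the design had set for that case. No detection calls were used and no intensity minimum was set, and the number of arrays limits the precision. limma 3.58.1 (R 4.3.3) was fitted to the 50 arrays of 10 ages that had replicates, estimating each genotype at each age separately (residual degrees of freedom: 30) with an intensity trend in the variances. Tests were 2-sided, with Benjamini-Hochberg adjustment over 18193 genes. An exact permutation of 2 against 2 arrays cannot go below 0.333.

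On data simulated for the PN12 comparison with 18193 genes, 98 of 100 changes of 1 log2 unit and 78 of 100 of 0.5 were called, with 9 unchanged genes. The simulated noise was normal and independent between genes and arrays. Deviations that many genes of an array share were not simulated, so these counts may be too favourable for the real arrays. Replicate numbers did not pair the arrays: the correlation of same-numbered deviations was -0.10 at PN12 and -0.44 to 0.49 over all ages.

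Named genes were the 25 largest rises and 20 largest falls, up to 5 per list, up to 5 changes each way between ages, called genes within 20 Mb of Pde6b, and Pde6b. Clone names and predicted genes were skipped. The 36 lists hold 672 entries, 612 of them measured. Members, lists and rules were chosen with earlier results of these data known. Lists are described by counts and medians without a set test. Promoter windows and coordinates come from RefSeq (GRCm38.p6), and 14452 genes had a window. The alternatives comprised quantile normalization, centring (each array on its mean over genes of amacrine and ganglion cells), a filter on the dimmest 30%, an offset of 32, the mean of all probe sets, no trend, array weights, a replicate block, the compared arrays alone, and leaving out each array.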

Additional observations from a re-analysis of the deposited data

Results flagged for a closer look

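The difference between rd1 and WT changed from PN12 to PN13 for 14 genes in limma's test of the change, and these were singled out for that reason. Pcolce had the largest change, 1.26 (from 1.01 to 2.26, adjusted p = 0.0012). Cd68 changed by 1.00, Ly86, a phagocyte surface protein, by 0.99 (from 0.47 to 1.46), Lyz1, a lysozyme, by 0.98 (from 0.49 to 1.47) and Cst7, a cystatin of activated microglia, by 0.96 (from 0.22 to 1.18). At PN12 alone Ly86 (adjusted p = 0.0560), Lyz1 (0.129) and Cst7 (0.410) were not called.

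Lrp4 fell further, with a change of -0.83 (from -0.70 to -1.53, adjusted p = 0.0016, and 0.0550 without WT PN12 replicate 2). Samd11, a photoreceptor nuclear protein, changed by -0.76 (from -0.09 to -0.85), Ces2f, a carboxylesterase, by -0.62 (from 0.37 to -0.25) and Tapt1 by -0.40 (from -0.08 to -0.48). The changes of Pcolce, Ly86, Cst7 and Tyrobp passed the threshold in every alternative that tested them. That of Lyz1 missed it without WT PN12 replicate 1 (adjusted p = 0.121), rd1 PN12 replicate 1 (0.158) or WT PN13 replicate 2 (0.0599). Those of Samd11, Ces2f and Tapt1 missed it when arrays were left out (0.0504 to 0.432), in the mean of all probe sets (0.336 to 0.457) and after centring (0.119 to 0.168). Quantile normalization (0.0658 for both) ended those of Samd11 and Tapt1, the fit of the compared arrays alone those of Ces2f (0.159) and Tapt1 (0.0878), and moderation without a trend that of Tapt1 (0.0543). E2f6, a repressor of the E2F family, changed by 0.54 and missed it without WT PN12 replicate 1 (0.0574) or rd1 PN12 replicate 1 (0.158) and in the fit of the compared arrays alone (0.0522). Prtg, protogenin, changed by 0.48 and missed it when arrays were left out (0.0503 to 0.232), in the mean of all probe sets (0.452) and in the fit of the compared arrays alone (0.0604).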

How the results depend on the processing

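The count of called genes at PN12 was 154, and without 1 array it ranged from 62 to 133 (49 to 92 higher, 12 to 41 lower). In those fits the lone array of a genotype is assumed to vary like the other groups, and fewer arrays were compared. Lower genes numbered 42, but 70 after quantile normalization, 82 in the fit of the compared arrays alone and 83 after centring. Higher genes numbered 112, and 52 after centring. The other settings gave 148 to 175 calls, and with the dimmest 30% left out no red blood cell gene remained. A replicate block gave 153 calls, a crossed replicate block, chosen after seeing the data, 161. The block ended the calls of S100a6 (adjusted p = 0.0561), Nxnl1 (0.0649), Cp (0.0807) and Dag1 (0.0686), and no other of the 67 calls among named genes; of these 67, 36 remained without each array in turn. In the fit of the compared arrays alone 13 named genes gained a call. They were 6 crystallins (Cryab higher, the others lower), Ifitm3, B2m, Susd3, Prph2, Rdh12, Ly86 and Lyz1. Other settings added calls of Ces2f, Egflam, Gulo, Il1a, Ly86 and Vim. The cause of these shifts was not tested.

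From PN11 to PN12 the count was 0 in every setting run (345 to 846 genes at an unadjusted p below 0.05). From PN12 to PN13 it was 14, and 24 with an offset of 32, 26 with the mean of all probe sets, 57 with array weights and 46 with the compared arrays alone. Without 1 array it ranged from 6 (without rd1 PN12 replicate 1) to 16, with 7 without WT PN12 replicate 1. The replicate block gave 17, and under it the changes of C1qc (adjusted p = 0.0953) and Tapt1 (0.0511) missed the threshold. No difference named in the text changed sign while called. For 81 called genes, 146 further probe sets existed, of which 119 had the same sign, with a median of 0.21 in the direction of the call. With 2 arrays per genotype, differences near 0.5 are found only in part.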

Other observations

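Transcripts of the sex chromosomes, looked at after the other values were seen, differed between arrays of 1 genotype. Xist, expressed from the inactive X of females, measured 13.29 and 12.79 in the WT arrays and 12.19 and 13.19 in the rd1 arrays. Eif2s3y, a Y-linked gene, measured 6.56 and 8.34 in WT and 8.87 and 7.78 in rd1, and Kdm5d, a second, 6.01 and 7.33 in WT and 7.51 and 6.64 in rd1. The genotypes overlapped in Xist and Eif2s3y and in Kdm5d, and none was called (adjusted p = 0.933, 0.858 and 0.913). The array with the highest Xist, WT replicate 1, had the lowest Y-linked values, and rd1 replicate 1 the reverse.

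Further genes called higher at PN12, in no list and chosen after their values were seen, included Sox30, a factor of the testis (0.76), Stard10, a lipid transfer protein (0.70), Tubb6, a beta tubulin (0.66), Gsdme, a gasdermin that can form pores in dying cells (0.50), Htra1, a secreted protease (0.52), Cyp1b1 (0.39), Rdh10, a retinol dehydrogenase (0.36), and Cdh2, N-cadherin (0.36). Among lower genes were Adam8, a membrane protease (-0.49), Iqgap1, a scaffold protein (-0.47), Col19a1, a collagen (-0.45), Kirrel, an adhesion protein (-0.44), and Ramp3, a receptor activity-modifying protein (-0.37).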
